A study of Mus musculus with 5 samples.

Results

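The genes of the constitutive proteasome were followed in bulk RNA-seq of prostate tumor tissue. All genes of the deposited count table whose symbol is Psma, Psmb, Psmc or Psmd followed by a number were taken, without Psmb8, Psmb9 and Psmb10, which belong to the immunoproteasome. This gave 36 of 24527 genes, of which 16 encode the core particle (Psma and Psmb). The other 20 (Psmc and Psmd) were counted under the regulatory particle, including 3 genes of its assembly chaperones. The mice, called TripleTg, carried hHGFtg (a ubiquitous human HGF transgene), hMETtg (human MET, switched on by Cre), BCAT (a conditional β-catenin allele that is stabilized once Cre has removed an exon) and PBCre (Cre under the probasin promoter, active in prostate epithelium). All of these alleles were present in both groups, so no group lacked HGF, MET or β-catenin activation. One group was castrated and the other was left intact.

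The proteasome degrades proteins that have been tagged with ubiquitin. Its core particle is a barrel in which rings of alpha subunits form the gate and rings of beta subunits hold the protease sites, and its regulatory particle has a base, with a ring of ATPases that unfold the substrate, and a lid, which removes the ubiquitin chain. The subunits are needed in fixed proportions, and their genes are expressed in nearly every cell type.

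Castration was done at 4 months of age and all mice were analyzed at 8 months. There were 3 castrated and 2 intact samples, each from a separate mouse. The total count was 28015507, 18951782 and 20492061 in castrated replicates 1 to 3, and 21560355 and 22853501 in the intact pair. Proteasome genes took 0.448%, 0.381% and 0.353% of the counts in the castrated samples, and 0.493% and 0.432% in the intact samples. The median count of a tested proteasome gene lay between 1968 and 3601 reads per sample, and counting error was small beside the spread between mice. With 2 intact samples this spread was poorly known, and the common dispersion between mice estimated over all genes was 0.238.

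The samples did not hold the same cell mixture. Genes of epithelial cells were abundant in all of them, with Krt8, a keratin of luminal epithelium, between 661 and 1155 CPM (the counts of a gene scaled to library size, with the TMM factors of edgeR). Pbsn, the prostate secretory gene whose promoter drives Cre, was at 0.454, 0 and 0.244 CPM in the castrated samples and 0 and 5.21 CPM in the intact samples, so a marker of differentiated prostate secretion was close to absent in 4 of 5 samples. Intact replicate 2 stood apart. Its 75 cytosolic ribosomal protein genes summed to 128907 CPM, against 37533 to 44720 CPM in the 4 other samples. The 10 adipocyte markers summed to 204, 2864 and 2065 CPM in the castrated samples and 79.6 and 273 CPM in the intact samples, led by Lpl. The 9 macrophage markers, led by Lyz2, summed to 2621, 7347 and 2989 CPM against 1100 and 1665 CPM, and the 6 smooth muscle markers, led by Acta2, to 374, 670 and 605 CPM against 198 and 138 CPM. Endothelial markers, led by Cdh5, summed to 335, 267 and 304 CPM against 397 and 166 CPM. Cdh5 alone was at 227 CPM in intact replicate 1, and 3 of the 5 endothelial markers (Pecam1, Kdr and Tek) had each castrated sample above both intact samples, as did 9 of 9 macrophage and 6 of 6 smooth muscle markers (17% of all genes). T cell markers, led by Cd4, summed to 12.9, 50.4 and 47.1 CPM against 3.36 and 33.9 CPM. The 6 markers of proliferating cells, led by Mki67, summed to 53.9, 75.3 and 100.3 CPM against 235 and 299 CPM. No marker gene in the table was at 0 in all samples. The part of these differences in the values of the proteasome genes was not tested, and in bulk tissue fewer cells of a type and less RNA per cell cannot be told apart.

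The proteasome genes differed little between castrated and intact tumors. Of 36 genes, 34 had a CPM above 1 in at least 2 samples and were tested. Their median log2 fold change (castrated minus intact) was -0.18, against -0.03 for all 14612 genes tested, with a range from -0.83 for Psma5 to 0.30 for Psmb5. The fold change was below 0 for 29 of 34 genes (85.3%), against a background of 52.1% of all genes tested. Without intact replicate 1 it was below 0 for 19 of 34 genes (55.9%). The share of all genes below 0 is not given for that setting, where the median of all genes was 0.04. With all samples, the fold change lay within 1 log2 unit of 0 for 34 of 34 genes, against 78.5% of all genes. With edgeR's quasi-likelihood test, 0 of 34 genes passed a Benjamini-Hochberg adjusted p of 0.05, where 0 genes (0%) of the whole table passed as well, and the smallest adjusted p was 0.290 among the proteasome genes and 0.289 over all genes. At an unadjusted p under 0.05, 3 genes were lower (8.82%, background 6.28%) and 0 were higher (background 8.74%). In 9 of 34 genes (26.5%) each castrated sample lay below both intact samples, where 16.1% of all genes did so, and in 1 gene each lay above (background 17%). The other 24 genes overlapped between the groups. DESeq2 called 1 of these genes, Psma5, with an adjusted p of 0.0319, where it called 1255 of 16228 genes (7.73%) at the same threshold. At that threshold and an absolute log2 fold change above 1, which Psma5 did not reach (-0.84), DESeq2 called 1073 genes of the whole table. The median of the proteasome genes was -0.27 without intact replicate 2 and -0.05 without intact replicate 1, beside 0.01 and 0.04 for all genes.

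**Figure D1:**
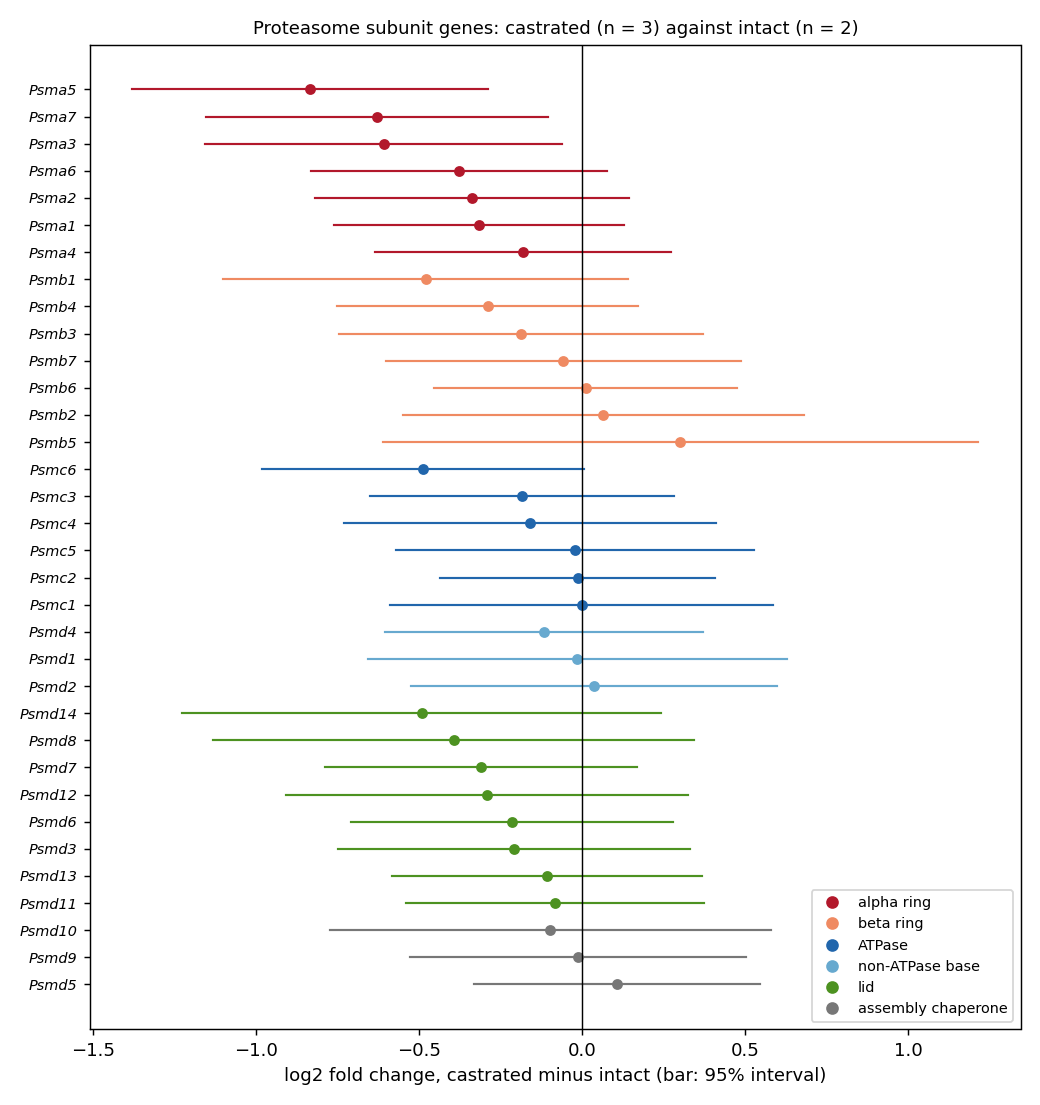
Log2 fold change (castrated minus intact) of the 34 tested proteasome genes on the horizontal axis, with 1 gene per row, colored by class. Points are estimates and bars 95% intervals from 3 castrated and 2 intact samples, and the bars of Psma5, Psma7 and Psma3 are the only ones that do not reach 0.

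Of the classes, the alpha ring genes had the lowest median. These subunits form the outer rings of the core particle and its gate. All 7 tested genes (Psma1 to Psma7) had a fold change below 0, with a median of -0.38, and 6 of them had each castrated sample below both intact samples (16.1% of all genes). Psma5 (chr3:108256926-108279952, plus strand, mm10), an alpha ring subunit, was at 114, 91.8 and 79.5 CPM in the castrated samples and 162 and 177 CPM in the intact samples. The groups did not overlap, and castrated replicate 1 was the nearest to the intact samples. Its log2 fold change was -0.83 ± 0.22 (SE, n = 3 and 2), with an adjusted p of 0.290 in edgeR's test. Psma7, a further alpha subunit, was at 166, 133 and 122 CPM against 208 and 226 CPM, with a log2 fold change of -0.63 ± 0.21. Psma3 was at 183, 146 and 129 CPM against 237 and 229 CPM, with a log2 fold change of -0.61 ± 0.22. In both, castrated replicate 3 was the lowest of the 5 samples. Their adjusted p was 0.302 and 0.316. The span of Psma3 overlaps that of 3110056K07Rik on the opposite strand over 4263 bases, and reads of this pair cannot be told apart if counting ignored strand. Psma6 (-0.38), Psma2 (-0.34) and Psma1 (-0.31) also kept the groups apart. Psma4 (chr9:54950859-54958030, plus strand), the member of the ring with the smallest difference, was at 129, 107 and 109 CPM in the castrated samples and 126 and 135 CPM in the intact samples. Here castrated replicate 1 lay between the intact samples, and the log2 fold change was -0.18 ± 0.18. The 7 genes stayed below 0 when any single sample was left out, with medians between -0.34 without castrated replicate 3 and -0.47 without intact replicate 1. After a correction for gene length their median was -0.29, close to the -0.28 of the lid genes. Psma8, the alpha subunit of the testis, had 19, 25 and 5 reads in the castrated samples and 8 and 1 reads in the intact samples and was not tested.

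The beta ring genes had fold changes on both sides of 0. Of 7 tested genes, 4 had a fold change below 0, the median was -0.06, and 1 gene, Psmb4 (-0.29), had each castrated sample below both intact samples (16.1% of all genes). The median was -0.25 without intact replicate 2, -0.01 without intact replicate 1, -0.18, with 6 of 7 genes below 0, without castrated replicate 1, and 0.02 without castrated replicate 3. Psmb5, Psmb6 and Psmb7 encode the subunits with the chymotrypsin-like, caspase-like and trypsin-like sites. Psmb5 (chr14:54614120-54617995, minus strand) was at 41.5, 23.6 and 21.2 CPM in the castrated samples and 24.6 and 22.2 CPM in the intact samples. Only castrated replicate 1 was high, and the log2 fold change of 0.30 ± 0.36 became -0.06 without it. Psmb6 (chr11:70525357-70527858, plus strand) was at 107, 118 and 93.8 CPM against 103 and 108 CPM, and the intact samples lay within the range of the castrated samples. Psmb7 (chr2:38588046-38643906, minus strand) was at 119, 94.8 and 92.3 CPM against 119 and 93.7 CPM, with 1 high and 1 low value in the intact pair. The log2 fold changes of Psmb6 and Psmb7 were 0.01 ± 0.18 and -0.06 ± 0.21, with 95% intervals from -0.45 to 0.48 and from -0.60 to 0.49. The interval of Psmb5 ran from -0.61 to 1.21. Psmb1 (chr17:15475721-15498276, minus strand), a structural beta subunit, had the lowest value of the ring. It was at 196, 148 and 159 CPM against 193 and 274 CPM, with the highest value in intact replicate 2. Its log2 fold change was -0.48 ± 0.25, and -0.25 without that sample. Psmb3 (-0.19) and Psmb2 (0.06) overlapped between the groups. Psmb11, the beta subunit of the thymus, had 1 read in intact replicate 1 and 0 in the other samples. RefSeq names 6 pseudogenes of Psma5, Psmb5, Psmb6 and Psmb7, none of which is a row of the count table, so the levels of these 4 genes are uncertain. How much sequence the pseudogenes share with them was not measured.

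In the regulatory particle, 18 of 20 genes had a fold change below 0 (52.1% of all genes), with a median of -0.11. Without intact replicate 1 these values were 8 of 20 and 0.03, beside a median of 0.04 for all genes. At an unadjusted p under 0.05, 0 of the 20 were lower (6.28% of all genes). The 6 ATPase genes, which encode the unfolding ring of the base, had a median of -0.09, which was -0.24 without intact replicate 2, -0.22 without castrated replicate 1, -0.02 without castrated replicate 3 and 0.03, with 3 of 6 genes below 0, without intact replicate 1. Psmc6 (chr14:45329824-45349071, plus strand) was at 157, 130 and 122 CPM in the castrated samples and 181 and 202 CPM in the intact samples, the only one of 6 ATPase genes without overlap (16.1% of all genes lay below in this way), with a log2 fold change of -0.49 ± 0.20. Psmc1 (chr12:100112331-100123364, plus strand) was at 193, 163 and 155 CPM against 200 and 142 CPM, so that the intact samples were the highest and the lowest of the 5. Its 95% interval ran from -0.59 to 0.59. The other ATPase genes lay between -0.18 for Psmc3 and -0.01 for Psmc2. Among the non-ATPase subunits of the base, Psmd4, a ubiquitin receptor (chr3:95032691-95042614, minus strand), was at 113, 97.7 and 88.9 CPM against 116 and 101 CPM, with a log2 fold change of -0.12 ± 0.19. Psmd2, a scaffold subunit (chr16:20651652-20663414, plus strand), was at 271, 266 and 224 CPM against 281 and 214 CPM, again with the intact samples at both ends, and its log2 fold change was 0.04 ± 0.22. Psmd1, the other scaffold subunit, was at -0.01, and its gene span overlaps that of Htr2b on the opposite strand.

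The 8 lid genes had a median of -0.25 and all had a fold change below 0. Psmd14 (chr2:61711694-61800376, plus strand) encodes the deubiquitinase of the lid. It was at 135, 103 and 91.4 CPM in the castrated samples and 190 and 119 CPM in the intact samples. Intact replicate 1 was above the other 4 samples, and the log2 fold change of -0.49 ± 0.29 was -0.83 without intact replicate 2 and -0.09 without intact replicate 1. Psmd11 (chr11:80428615-80472133, plus strand), a scaffold subunit of the lid, was at 109, 111 and 105 CPM against 127 and 103 CPM, with a log2 fold change of -0.08 ± 0.18. Psmd8 was the lid gene with the highest level in intact replicate 2. It was at 204, 224 and 195 CPM against 195 and 350 CPM. Psmd7 (-0.31) was the only lid gene of 8 with each castrated sample below both intact samples (16.1% of all genes). Psmd12 (-0.29), Psmd6 (-0.21), Psmd3 (-0.21) and Psmd13 (-0.11) overlapped. Without intact replicate 1, 4 of the 8 lid genes had a fold change below 0 and their median was -0.03, and without castrated replicate 3 the median was -0.16. Psmd5, Psmd9 and Psmd10 encode chaperones that assemble the base and are not part of the finished particle. Psmd10 (chrX:140948425-140956711, minus strand) was at 29.3, 21.5 and 25.4 CPM against 22.9 and 31.4 CPM, with a log2 fold change of -0.10 ± 0.27. Psmd5 (chr2:34852089-34870962, minus strand) was at 58.7, 54.8 and 56.0 CPM against 50.2 and 54.8 CPM. It was the only proteasome gene with each castrated sample above both intact samples, although castrated replicate 2 and intact replicate 2 were almost equal, and its log2 fold change was 0.11 ± 0.17. Psmd9 was at -0.01.

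**Figure D2:**
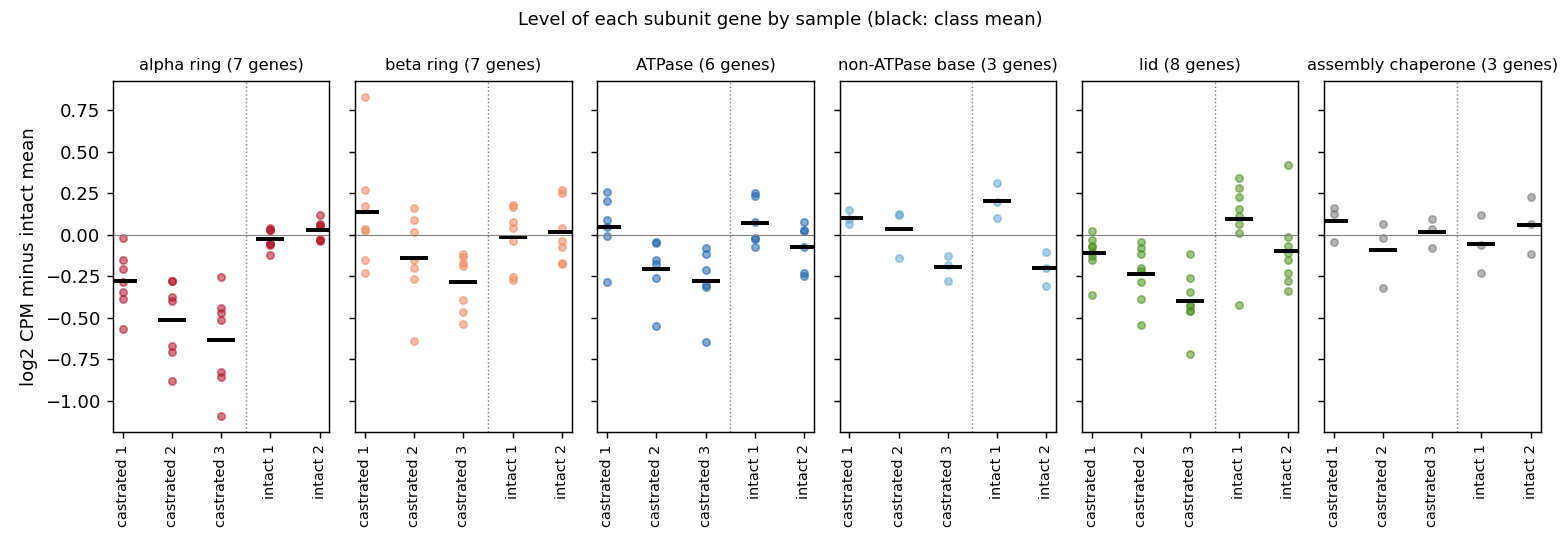
Log2 CPM of each tested gene minus its mean in the 2 intact samples, by sample and class. Colored points are genes and black bars the mean of the class, which for the alpha ring was -0.28, -0.51 and -0.64 in castrated replicates 1 to 3 and for the beta ring 0.14, -0.14 and -0.29.

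Levels were also followed from sample to sample. Averaged over the 34 genes, log2 CPM relative to the intact mean was -0.03, -0.23 and -0.35 in castrated replicates 1 to 3, and 0.04 and -0.04 in the intact samples. Castrated replicate 3 was the lowest of the 5 samples for 24 genes, and castrated replicate 1 for 0. Intact replicate 1 was the highest for 18 genes and intact replicate 2 for 10. The beta ring mean of castrated replicate 1 lay above both intact samples, whereas the alpha ring mean of each castrated sample lay below them. The median SD of log2 CPM over the 5 samples was 0.22 for the proteasome genes, 0.46 for all genes tested and 0.34 for the 7167 genes in the same range of mean CPM. Psmc2, an ATPase, had the smallest SD (0.07), with its highest sample 1.13 times its lowest, and Psma5 the largest (0.50), with a ratio of 2.22.

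The core and the regulatory particle were compared within each sample. Summed over its genes, the core particle was at 1813, 1546 and 1419 CPM in the castrated samples and 1993 and 2096 CPM in the intact samples, and the groups did not overlap. Within the core, only the alpha ring sums kept the groups apart (1020, 868 and 797 CPM against 1224 and 1270 CPM). The beta ring sums overlapped (792, 677 and 621 CPM against 769 and 825 CPM). The regulatory particle was at 2564, 2331 and 2111 CPM against 2768 and 2488 CPM, where castrated replicate 1 lay between the intact samples. Within the regulatory particle, the lid sums kept the groups apart (987, 924 and 821 CPM against 1139 and 1087 CPM), and the sums of its other classes overlapped. The ratio of core to regulatory CPM was 0.707, 0.663 and 0.672 in the castrated samples and 0.720 and 0.842 in the intact samples. Only intact replicate 2 was clearly higher, and intact replicate 1 was close to castrated replicate 1. The median fold change of the core genes (-0.30) was 0.19 log2 units below that of the regulatory genes (-0.11). This difference was -0.07 without intact replicate 2, -0.28 without intact replicate 1, and -0.08 after a correction for gene length. Subunits are not replicates, so no test was made of it.

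**Figure D3:**
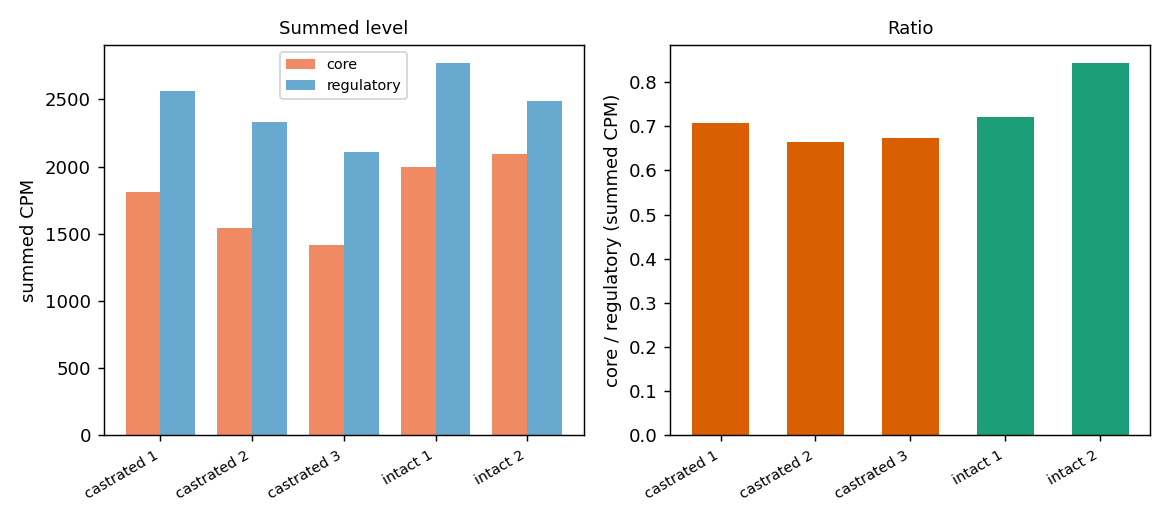
Left, summed CPM of the 16 core and 20 regulatory genes in each sample. Right, their ratio, which was between 0.663 and 0.720 in 4 samples and 0.842 in intact replicate 2.

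Levels were also compared between genes on the length-scaled TPM scale, in which counts are divided by gene length and scaled to the same sum in each sample. Psmb1 had the highest mean over the 5 samples (420 TPM), followed by Psma2 (366 TPM), Psmd8 (344 TPM), Psmb4 (336 TPM) and Psma6 (310 TPM). Their values overlapped between samples, with Psmb1 between 340 and 494 TPM and Psma2 between 300.2 and 468 TPM. Psmb5 was the exception among the structural subunits of the core. It was at 112, 64.3 and 56.7 TPM in the castrated samples and 69.9 and 47.3 TPM in the intact samples, below each other tested core gene in every sample. Its span overlaps that of Mir686 on the same strand over 109 bases, and the part of this overlap in its level was not tested. Psmb6 and Psmb7, the other catalytic subunits, had means of 234 and 246 TPM. Psmd5, Psmd10 and Psmd9 had means of 61.3, 40.4 and 27.3 TPM. On this scale the ratio of core to regulatory genes was 1.10, 1.06 and 1.06 in the castrated samples and 1.10 and 1.26 in the intact samples, so intact replicate 2 was again the highest.

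**Figure D4:**
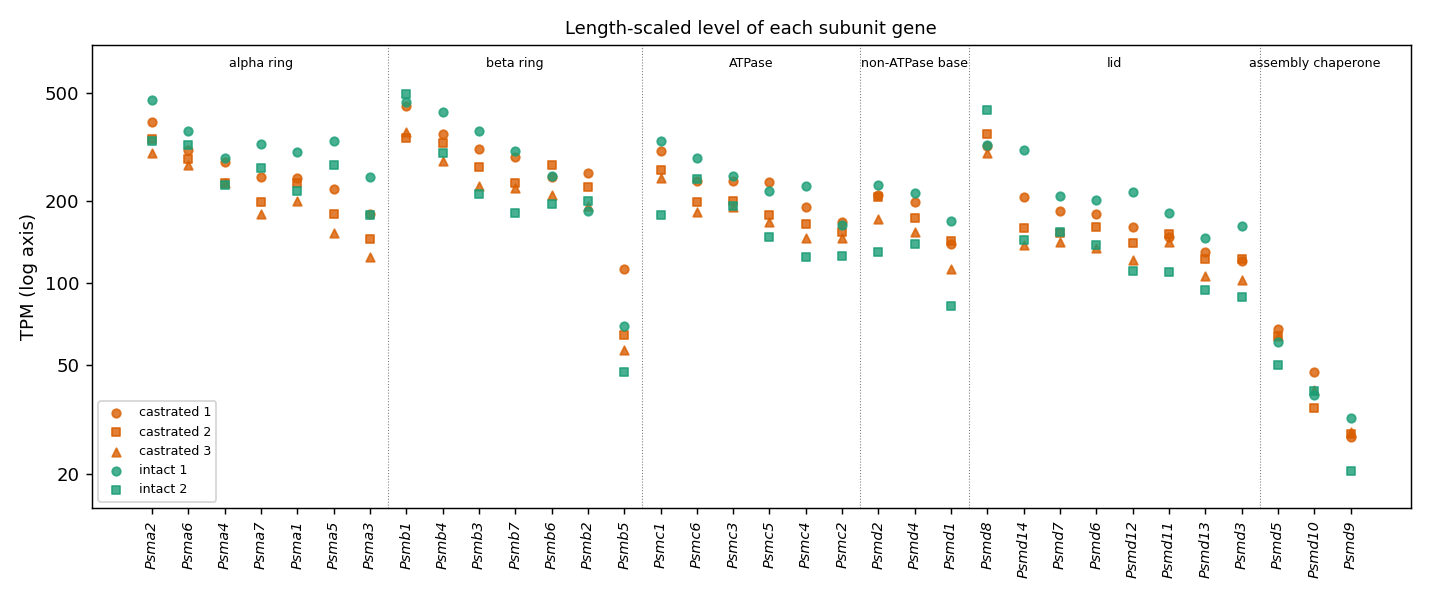
TPM (log axis) of the 34 tested genes in the 5 samples, ordered by mean within each class. Psmb5 lies between 47.3 and 112 TPM, below the other core genes, and the 3 assembly chaperones lie at the right end, with Psmd9 between 20.5 and 32.1 TPM.

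Promoter sequences of the proteasome genes were also read. RefSeq promoters of the assembly GRCm38.p6, the same assembly as mm10, were found for 29 of the 36 genes, and not for Psma8, Psmb1, Psmb2, Psmb7, Psmc3, Psmd3 and Psmd7. In the 250 bases before the start, both strands were searched for letters of sites known from housekeeping and stress-response promoters. The core of the antioxidant response element, TGACNNNGC, the element bound by NRF1 and NRF2, was held by 5 of 29 promoters (17.2%), against 11.5% of the promoters of 27025 genes. The ETS letters CCGGAAG were held by 9 of 29 promoters (31%), against 7.83% of all. They were in 8 of 17 promoters of regulatory genes (Psmc1, Psmc2, Psmc6, Psmd2, Psmd4, Psmd6, Psmd11 and Psmd12) and in 1 of 12 promoters of core genes (Psma6). GGGCGG, the SP1 box, was held by 58.6% (all genes 35.4%) and CCAAT by 41.4% (all genes 37.5%). Motifs were counted separately even where they overlapped, as the antioxidant letters and the SP1 box did in Psmd9. The 150 bases before the start are given 5′ to 3′ on the strand of the gene. They are shown for Psma5, with the lowest fold change, the catalytic genes Psmb5 and Psmb6, and the regulatory genes Psmc6, Psmd2 and Psmd12. Psmc6 had the lowest and Psmd2 the highest fold change of its class, and Psmd12 had neither. Promoters of other genes with the lowest or highest fold change of a class are not printed. Capitals mark the antioxidant letters or the ETS letters (CTTCCGG where the match is on the other strand).
Psma5 (chr3:108256776-108256925, plus strand): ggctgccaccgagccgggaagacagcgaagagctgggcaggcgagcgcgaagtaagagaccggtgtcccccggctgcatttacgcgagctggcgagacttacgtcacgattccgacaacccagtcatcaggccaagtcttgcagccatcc
Psmb5 (chr14:54617996-54618145, minus strand): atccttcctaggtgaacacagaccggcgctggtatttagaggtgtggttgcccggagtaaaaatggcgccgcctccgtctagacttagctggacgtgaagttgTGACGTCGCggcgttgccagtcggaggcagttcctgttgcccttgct
Psmb6 (chr11:70525207-70525356, plus strand): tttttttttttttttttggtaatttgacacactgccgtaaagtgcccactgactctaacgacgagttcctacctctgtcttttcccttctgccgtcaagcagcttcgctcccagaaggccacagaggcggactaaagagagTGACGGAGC
Psmc6 (chr14:45329674-45329823, plus strand): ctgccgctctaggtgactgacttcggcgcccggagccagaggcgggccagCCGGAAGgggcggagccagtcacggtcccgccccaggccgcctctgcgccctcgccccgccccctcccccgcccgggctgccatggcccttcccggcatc
Psmd2 (chr16:20651502-20651651, plus strand): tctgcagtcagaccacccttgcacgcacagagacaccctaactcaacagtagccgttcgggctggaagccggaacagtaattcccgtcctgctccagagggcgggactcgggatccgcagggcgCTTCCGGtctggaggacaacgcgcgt
Psmd12 (chr11:107479378-107479527, plus strand): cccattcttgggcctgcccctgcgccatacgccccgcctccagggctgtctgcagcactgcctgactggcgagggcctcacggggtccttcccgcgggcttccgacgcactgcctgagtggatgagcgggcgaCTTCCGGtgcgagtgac
In these stretches the antioxidant letters ended 39 bases before the start in Psmb5 and at the last base before it in Psmb6, and neither motif was in that of Psma5. Psmc6 and Psmd12 also held the antioxidant letters farther upstream. A match is a string of letters and no evidence of binding. The fold changes of the holders of the antioxidant letters ranged from -0.49 for Psmc6 to 0.30 for Psmb5, on both sides of the median of all proteasome genes.

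The immunoproteasome genes Psmb8, Psmb9 and Psmb10, whose products replace Psmb5, Psmb6 and Psmb7 under interferon signalling, had fold changes above 0. Psmb8 was at 36.6, 59.2 and 65.0 CPM in the castrated samples and 18.4 and 36.3 CPM in the intact samples, with a log2 fold change of 0.97 ± 0.41 and an adjusted p of 0.351 in edgeR's test. The groups were apart, but castrated replicate 1 and intact replicate 2 were almost equal. Psmb9 was at 0.65 ± 0.49 and Psmb10 at 0.49 ± 0.37, both with overlap. In TPM, Psmb8 over Psmb5 was 0.628, 1.79 and 2.18 in the castrated samples and 0.535 and 1.17 in the intact samples. Psmb9 over Psmb6 was 0.150, 0.163 and 0.264 against 0.0696 and 0.170. Psmb10 over Psmb7 was 0.120, 0.204 and 0.274 against 0.0901 and 0.185. All 3 ratios were lowest in intact replicate 1 and highest in castrated replicate 3, and the groups overlapped in each. In a two-sided exact permutation test of log2 ratios over the samples, p was 0.4, 0.5 and 0.4 (0.5 for each after adjustment over the 3 ratios), where 3 against 2 samples cannot go below 0.1. The summed T cell, macrophage, adipocyte and smooth muscle markers were lower in castrated replicate 1 than in castrated replicates 2 and 3, as were these ratios, and their part in the ratios was not tested.

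**Figure D5:**
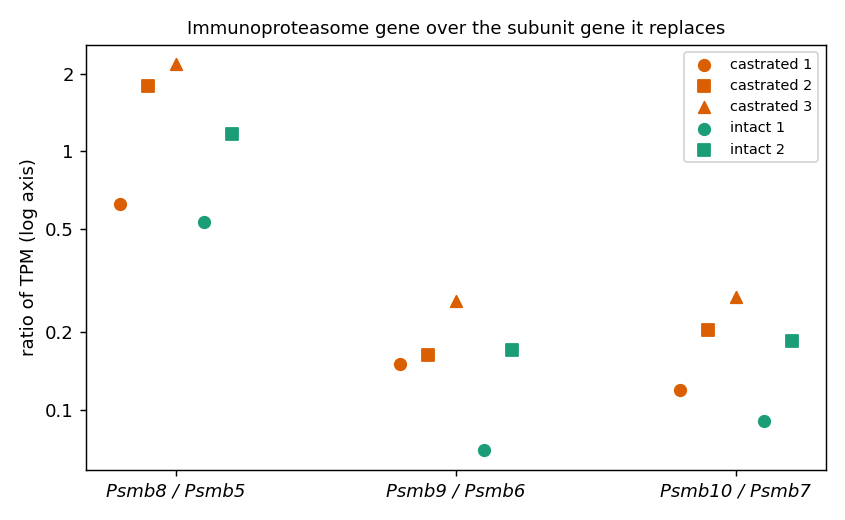
TPM of each immunoproteasome gene divided by that of the constitutive gene it replaces (log axis), by sample. Intact replicate 1 is the lowest and castrated replicate 3 the highest in all 3 ratios, and Psmb8 exceeds Psmb5 in castrated replicates 2 and 3 and in intact replicate 2.

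The cytosolic ribosomal protein genes are another large set that encodes a complex of fixed proportions. Their 75 genes had a median log2 fold change of -1.08, with 75 below 0, 42 with each castrated sample below both intact samples (16.1% of all genes), and 0 past the adjusted threshold in edgeR's test, with 21 lower and 0 higher at an unadjusted p under 0.05 (6.28% and 8.74% of all genes). Their mean level relative to the intact mean was -0.82, -1.03 and -0.85 in the castrated samples and -0.73 and 0.73 in the intact samples, so intact replicate 1 was close to the castrated samples and intact replicate 2 far above all. The proteasome genes, at 0.04 and -0.04 in the intact samples, did not separate the intact pair in this way. Without intact replicate 2 the ribosomal median was -0.21, with 59 of 75 genes below 0, beside -0.27 for the proteasome genes. The difference between the lists was not tested.

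Other genes of the pathway were read from lists of their known roles. The 5 assembly factors of the core particle had fold changes from -0.71 for Psmg4 to -0.28 for Pomp, and in 5 of 5 each castrated sample lay below both intact samples (background 16.1%). Pomp, the maturation factor of the beta rings, was at 115, 98.7 and 100.02 CPM in the castrated samples and 130 and 125 CPM in the intact samples. Psmg4, a chaperone of the alpha ring, was at 8.93, 7.56 and 6.97 CPM against 10.3 and 15.4 CPM. Both were lower in all castrated samples, and none of the 5 passed an unadjusted p of 0.05. The 5 genes of alternative caps and of the inhibitor ranged from -0.32 for Psme2, a subunit of the interferon-induced cap, to 0.31 for Psmf1, the inhibitor, with 0 called. Of 12 partners, which include shuttle factors, deubiquitinases and an import factor, 6 were below and 6 above 0. They ranged from -0.48 for Ubqln4, a shuttle factor, to 0.47 for Akirin2, which brings proteasomes into the nucleus. Rps27a, which encodes ubiquitin fused to a ribosomal protein, had a log2 fold change of -1.62 with an adjusted p of 0.310 in edgeR's test. Rps27a was at 744, 606 and 692 CPM against 955 and 3216 CPM, and thus highest in intact replicate 2. Among 7 genes of transcriptional control of the proteasome, Nfe2l1, which encodes NRF1, was at 311, 301 and 319 CPM against 337 and 253 CPM, with a log2 fold change of 0.07 ± 0.22. Vcp, the ATPase that extracts NRF1 from the endoplasmic reticulum, was at 328, 377 and 451 CPM against 224 and 269 CPM, each castrated sample above both intact samples. Its log2 fold change was 0.64 ± 0.24, with an adjusted p of 0.322 in edgeR's test. Nploc4, a cofactor of Vcp, had the lowest value of this list, -0.21 ± 0.29. In the lists of assembly factors, caps and inhibitor, partners and transcriptional control, 0 genes passed the adjusted threshold, with 0 lower and 1 higher at an unadjusted p under 0.05 (6.28% and 8.74% of all genes).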

How the data were processed

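Prostate tissue of 3 castrated and 2 intact TripleTg mice was sequenced, and samples were grouped by their labels. The authors depleted ribosomal RNA, used Trimmomatic 0.39 for trimming and STAR 2.7.9 for alignment to mm10, counted reads per gene with HTSeq 2.0.2, and deposited raw counts. Whether counting used strand is not given in the sources used here. The authors deposited gene lengths in kilobases (used for TPM and the length correction).

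The whole table, filtered for a CPM over 1 in 2 or more samples, was tested with edgeR 4.0.16 (quasi-likelihood F-test, TMM, Benjamini-Hochberg) in R 4.3.3. DESeq2 1.42.0 and limma 3.58.1 were used for alternatives, together with other scalings and filters, a replicate block, a length correction, and leaving out each sample. The procedure was tested on simulated data. The genes and lists were chosen with earlier results of these data known. Motifs and exchange ratios were chosen after values were seen. Values in every sample were given for the catalytic genes and for the lowest and highest fold change of each class. Psma7, Psma3 and Psmd8 were added after their values were seen. No pair of samples within a group held the same library (chi-square per gene 133 or more). Some genes of the marker and pathway lists are not reported here.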

Additional observations from a re-analysis of the deposited data

How the results depend on the processing

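The number of proteasome genes called at an adjusted p under 0.05 was 0 in all settings except DESeq2, which called 1. In all genes, 0 passed the adjusted p and a log2 fold change of 1, against 1073 with DESeq2, 369 with edgeR's likelihood ratio test and 0 to 1 when single samples were left out. The 3 genes lower at an unadjusted p under 0.05 became 5 with DESeq2, 1 with the likelihood ratio test and 1 to 4 without single samples. With the replicate number as a block, 0 were lower. Same-numbered samples are different mice, and their deviations correlated by 0.15 and -0.05, so the block is no pairing. The count of 9 genes with each castrated sample below both intact samples ranged from 9 to 26 without single samples (19 without castrated replicate 1, 14 without intact replicate 1, 26 without intact replicate 2), where fewer samples have to be kept apart. It was 6 with library size only and 12 with RLE size factors. The 29 genes with a fold change below 0 became 25 with library size only, 24 with a CPM above 1 in all samples, 24 with the replicate block, and 19 to 31 without single samples (19 without intact replicate 1). For the counts of lower and of non-overlapping genes, the share of all genes is given only for the fit behind the main results. The counts in other settings stand without a background and cannot be read as a result about these genes. The median of -0.18 ranged from -0.27 to -0.05. The core minus regulatory difference of -0.19 was -0.084 after the gene length correction and ranged from -0.28 to -0.069. Without intact replicate 1 the regulatory median was 0.03, with 8 of 20 genes below 0, beside a median of 0.04 for all genes.

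Fold changes near 0 changed sign in some settings. Psmb7 was at 0.010 with the block and 0.031 after the length correction, and Psmc1 at 0.014 with library size only, 0.032 with a CPM above 1 in all samples, 0.079 with the block and 0.0097 with limma voom. Without single samples, the ranges were -0.059 to 0.49 for Psmb5, -0.062 to 0.10 for Psmb6, -0.26 to 0.14 for Psmb7, -0.27 to 0.29 for Psmc1, -0.26 to 0.0098 for Psmd4, -0.19 to 0.27 for Psmd2, -0.27 to 0.10 for Psmd11 and -0.29 to 0.11 for Psmd10. The causes were not tested. The older quasi-likelihood fit of edgeR, chosen after seeing the data, changed no call. The number of intact samples limits all comparisons, and the groups cannot be told apart from the samples' cell mixture.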
